A study of Mus musculus with 23 samples.

Results

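The glutathione S-transferases (GSTs) join the tripeptide glutathione to reactive, often fat-soluble molecules, so that these can be exported and broken down as mercapturates. The soluble enzymes fall into the alpha, mu, pi, omega, theta and other classes, and a separate family, MAPEG, sits in membranes. Alpha and mu genes are textbook targets of the transcription factor NRF2, whose turnover by a cullin ubiquitin ligase depends on conjugation of NEDD8 to the cullin. In brain, GSTs are known mainly from glia, with some members in neurons.

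The 10 genes described here are *Gsta1*, *Gsta2*, *Gsta3*, *Gsta4*, *Gstm1*, *Gstm2*, *Gstm5*, *Gstp1*, *Gsto1* and *Mgst1*, of 56941 genes in the count tables. They were matched by Ensembl identifier, and all 10 were found. This list was chosen from earlier results of the same libraries, in which the CRE and RFP groups had been compared. Their CRE and RFP values are therefore a description, without a test, and the tests given concern differences between cultures and GST-related genes outside the list. In short, *Gsta3*, *Mgst1*, *Gsta4*, *Gstm1* and *Gsto1* were higher in each of the 11 CRE libraries compared than in any of the 10 RFP libraries, as were 2.64% of all genes tested, with log2 fold changes from 6.93 down to 0.93. *Gstm5* was lower, *Gstm2* and *Gstp1* overlapped between the groups, and *Gsta1* and *Gsta2* were almost silent.

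Primary hippocampal cultures came from newborn mice homozygous for the Nedd8cKO allele, in which loxP sites flank exons of *Nedd8*. All groups carried this allele, and all cultures received a lentivirus at day 1 in vitro. The virus encoded RFP alone in the control group (RFP) or RFP with the CRE recombinase (CRE), driven by the Synapsin1 promoter, which is active in neurons. RNA was taken after 12 days in culture according to the sample labels. The 23 libraries comprised 12 CRE and 11 RFP libraries, numbered as in CRE 1-3. The first number, 1 to 3, was read as the culture, which neither the labels nor the study states in words. CRE 1-3 is thus taken as the third CRE library of culture 1. The comparisons used the 21 libraries of the study's own count table, 11 CRE and 10 RFP, which leaves out CRE 3-3 and RFP 3-2. Nothing in the labels says that libraries of 1 culture number are separate animals, so p-values measure the spread between libraries, part of which may be technical.

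Counts assigned to genes summed to between 9833872 and 17112815 per RFP library and between 7430401 and 13345552 per CRE library. Levels are given as CPM, which are read counts scaled to the same total per library. *Nedd8* itself had 44.1 to 76.0 CPM in RFP libraries and 5.92 to 18.0 CPM in CRE libraries, so the groups matched their labels without overlap. CRE 1-3 and RFP 2-4 stood apart, with 0.261% and 3.43% of counts on mitochondrial genes against 7.0% to 11.1% in the other 19 libraries. Values without this pair are given for some of the genes. Neuronal markers such as *Map2* and astrocyte markers such as *Slc1a2* were present in all 21 libraries, so the RNA is that of a mixed culture.

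Sequence matters for this family in 2 ways. Copies that are nearly identical compete for the same reads, and the stretches upstream of the genes differ in their match to the antioxidant response element, the DNA motif known to be bound by NRF2. *Gsta1* and *Gsta13* had 99.7% identical coding sequences, *Gsta1* and *Gsta2* 97.5%, and *Gstp1* and *Gstp2* 98.1%. In contrast, *Gsta3* and *Gsta4* were 65.9% identical and *Gstm1* and *Gstm5* 69.5%. Of all 50-base stretches of the representative transcript, 88.6% in *Gsta1*, 62.5% in *Gsta2*, 56.3% in *Gstp1*, 31.4% in *Gstm2* and 21.6% in *Gstm1* also occurred in a transcript of another gene. No such stretch was shared in *Gsta3*, *Gsta4*, *Gstm5*, *Gsto1* or *Mgst1*. Counts of *Gsta1*, *Gsta2*, *Gstp1* and *Gstm2* are therefore uncertain. The count of *Gstm1* is uncertain in part, and 7.18% of its 100-base stretches were shared as well. For the 5 genes without shared stretches this holds less, but exons outside the representative transcript and inexact matches were not searched. In *Gsta3* that transcript has 1464 bases, against 5729 bases of exon.

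The longest identical coding stretches show this contrast. The first is shared by *Gstm1* (GRCm39, minus strand of chromosome 3) and the pseudogene *Gstm2-ps1* (minus strand of chromosome 5). It begins at base 261 of the *Gstm1* coding sequence, counted from the A of the start codon, and of the pseudogene transcript. The second is the longest that *Gstm1* shares with *Gstm5* (plus strand of chromosome 3), a gene of the same cluster with the opposite direction of change. It begins at base 203 of *Gstm1* and base 212 of *Gstm5*. Both were read from GENCODE M39 coding exons.
Gstm1 and Gstm2-ps1: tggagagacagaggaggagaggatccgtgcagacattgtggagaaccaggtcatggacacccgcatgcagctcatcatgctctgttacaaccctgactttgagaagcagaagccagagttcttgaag
Gstm1 and Gstm5: acaagatcacccagag
The run shared with the pseudogene is 127 bases long, that shared with *Gstm5* only 16, so no 50-base stretch is common to *Gstm1* and *Gstm5*.

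The core of the antioxidant response element, TGACNNNGC, was searched on both strands in the 1000 bases upstream of each gene's start. It was found for 4 of the 10 genes, against 28.2% of 21667 protein-coding genes. *Gsta3* held 3 matches, *Gsta1* and *Gstm5* 2 each and *Gsto1* 1, while *Gsta2*, *Gsta4*, *Gstm1*, *Gstm2*, *Gstp1* and *Mgst1* held none. Within 250 bases of the start, 2 of the 10 genes held a match, *Gsta3* and *Gstm5*, against 9.67% of the protein-coding genes. The matches of *Gstm5*, which was lower in CRE libraries, lie 9 and 945 bases upstream, the first of them nearer than any of *Gsta3*. The match of *Gsta3* nearest to its start, 118 bases upstream, and the pair of matches of *Gsta1* are shown with the motif in capitals, because the level of *Gsta3* differed most between the groups and *Gsta1* was almost silent in both. The match of *Gstt1*, a theta-class gene outside the list that rose, is shown for comparison. Its neighbour *Gstt3*, which rose as well, held none, and a match was found for 7 of the 19 GST genes outside the list. All are 5′ to 3′ on the strand of the gene, from GRCm39.
Gsta3, chr1:21310663-21310721, plus strand: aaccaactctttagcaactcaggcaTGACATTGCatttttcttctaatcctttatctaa
Gsta1, chr9:78137205-78137278, plus strand: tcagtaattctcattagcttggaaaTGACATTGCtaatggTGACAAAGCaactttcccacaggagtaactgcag
Gstt1, chr10:75634769-75634827, minus strand: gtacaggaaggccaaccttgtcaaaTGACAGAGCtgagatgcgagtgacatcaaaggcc
The *Gsta1* window occurred letter for letter upstream of *Gsta5* and *Gsta13* as well. A match is a description of these letters, not a site of binding. *Gsta1*, with 2 matches, had 5 reads in all, a count left uncertain by its shared stretches. *Gstm1*, with none, was the most abundant gene of the family, and whether a match bears on the level was not tested.

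In the fit across all genes, 8 of the 10 genes passed the filter on low counts. A gene was called when its edgeR adjusted p was under 0.05 over all genes tested. Of the 8, 5 were called higher in CRE libraries, where 16.4% of all 14488 genes tested were, and 1 was called lower, where 13.8% of all genes were. A stricter call, which also asks for a log2 fold change over 1.3 together with -log10 of the adjusted p over 6, took 4 of them and 1.09% of all genes. The list was chosen with this contrast known, so nothing is read from these counts. Because RNA was measured in bulk, fewer cells of a type and less RNA per cell cannot be told apart.

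*Gsta3* (ENSMUSG00000025934, chr1:21310806-21335885, plus strand), an alpha-class enzyme known in mice for neutralising aflatoxin epoxide, went from barely detectable to clearly present. RFP libraries held between 0 and 8 reads, which is 0 to 0.633 CPM with a median of 0.159. CRE libraries held 108 to 725 reads, which is 14.4 to 53.0 CPM with a median of 20.7. Every CRE library stood far above every RFP library. The mean went from 0.192 ± 0.207 CPM (SD, n = 10) to 25.8 ± 11.8 CPM (SD, n = 11), a log2 fold change of 6.93 ± 0.42 (SE). This was the 4th highest fold change among the 14488 genes tested. Its exons overlap *Gm28836* on the opposite strand over 497 of 5729 bases, and strand-aware counting is not stated.

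*Gsta4* (ENSMUSG00000032348, chr9:78090056-78117763, plus strand) conjugates 4-hydroxynonenal, a product of lipid peroxidation. It was expressed in all libraries, at 2.77 to 10.4 CPM in RFP (median 7.63) and at 25.9 to 81.9 CPM in CRE libraries (median 47.4). The lowest CRE library again exceeded the highest RFP library. The mean rose from 7.32 ± 2.13 CPM (SD, n = 10) to 50.6 ± 20.5 CPM (SD, n = 11), with a log2 fold change of 2.77 ± 0.24 (SE).

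*Gsta1* and *Gsta2*, alpha genes known from liver, were almost silent and did not pass the filter. *Gsta1* had no read in any RFP library, which allows up to 0.0247 CPM over the group by counting error alone, and 5 reads in all CRE libraries, at most 2 in one library. *Gsta2* had 4 reads in 1 RFP library, RFP 2-1, and 1 read in CRE 3-2. Neither level allows a fold change. *Gsta13*, with 0 and 8 reads, and *Gsta5*, with 24 and 4 reads, were as low. Reads that match several of these copies would be missing from all of them if the counting left such reads out, which was not tested.

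*Gstm1* (ENSMUSG00000058135, chr3:107919380-107925380, minus strand), a mu-class enzyme for a broad range of electrophiles, was the most abundant GST in both groups. Its level was 209 to 404 CPM in RFP (median 290.1) and 471 to 1825 CPM in CRE libraries (median 1152). The groups did not overlap. The mean rose from 299.6 ± 60.0 CPM (SD, n = 10) to 1096 ± 431 CPM (SD, n = 11), with a log2 fold change of 1.85 ± 0.20 (SE). The 3 CRE libraries of culture 3 were the lowest of their group.

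*Gstm2-ps1*, a pseudogene outside the list, shares 16.2% of the 50-base stretches of *Gstm1*. Of its own stretches, 35.4% occur in *Gstm1*, and it is 97.9% identical to the coding sequence of *Gstm1*. The counts assigned to *Gstm2-ps1* rose from 1.04 ± 0.417 to 4.29 ± 2.14 CPM (SD). The log2 fold change was 2.01 ± 0.35 (SE), with an edgeR adjusted p of 9.5e-05. Its level was a small fraction of that of *Gstm1*. How many of its reads came from *Gstm1* was not tested.

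*Gstm5* (ENSMUSG00000004032, chr3:107803137-107806005, plus strand), a mu-class enzyme known from brain and testis, went the other way. RFP libraries held 47.6 to 96.5 CPM (median 67.3) and CRE libraries 24.2 to 51.4 CPM (median 42.4). Here the groups touched, and 7 of the 11 CRE libraries stood below every RFP library. The mean fell from 70.0 ± 13.6 CPM (SD, n = 10) to 42.2 ± 7.85 CPM (SD, n = 11), with a log2 fold change of -0.75 ± 0.13 (SE).

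The ratio of *Gstm1* to *Gstm5* reads within a library does not depend on depth or scaling between libraries. It ran from 3.25 to 5.63 in RFP and from 11.7 to 75.2 in CRE libraries, and every CRE library stood above every RFP library. The 75.2 belonged to CRE 1-3, and the next highest ratio was 41.4, in CRE 1-2. The 7 mu genes of mouse lie side by side on chromosome 3, in the order *Gstm5*, *Gstm7*, *Gstm6*, *Gstm3*, *Gstm2*, *Gstm1* and *Gstm4*. *Gstm7* and *Gstm6*, which lie between *Gstm5* and *Gstm1*, and *Gstm4*, beside *Gstm1*, did not pass the test. They had log2 fold changes of 0.23 ± 0.22, -0.25 ± 0.37 and 0.61 ± 0.33 (SE), with edgeR adjusted p values of 0.471, 0.664 and 0.176. *Gstm4* was called, at 0.85 with an adjusted p of 0.048, without CRE 1-3 and RFP 2-4. *Gstm3* had 3 and 16 reads in all RFP and CRE libraries and was not tested.

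*Gstm2* (ENSMUSG00000040562) was near the limit of detection, with 0 to 2.06 CPM in RFP and 0 to 3.72 CPM in CRE libraries. The groups overlapped widely. Its log2 fold change was 1.05 ± 0.63 (SE), with a 95% interval from -0.18 to 2.29.

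*Gstp1* (ENSMUSG00000060803, chr19:4085405-4088068, minus strand), the pi-class enzyme that also binds the kinase JNK, had a lower median in CRE libraries. RFP libraries held 20.5 to 43.4 CPM (median 34.0) and CRE libraries 17.6 to 72.5 CPM (median 23.1), and the ranges overlapped. The mean was 32.5 ± 6.15 CPM (SD, n = 10) and 29.6 ± 15.6 CPM (SD, n = 11), with a log2 fold change of -0.16 ± 0.20 (SE). The 72.5 CPM belonged to CRE 1-3 alone. Without CRE 1-3 and RFP 2-4 the log2 fold change was -0.37, and without culture 1 it was -0.48. In each of these fits 2 listed genes were called lower, *Gstm5* and *Gstp1*.

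*Gsto1* (ENSMUSG00000025068, chr19:47842686-47853229, plus strand), an omega-class enzyme that reduces dehydroascorbate, held 20.2 to 30.9 CPM in RFP (median 25.9) and 35.3 to 81.1 CPM in CRE libraries (median 44.5). None of these 11 CRE libraries fell within the range of the 10 RFP libraries. This rests on the libraries compared, since RFP 3-2, which was left out, held 38.4 CPM, above 4 of the CRE libraries. The mean rose from 25.8 ± 4.04 CPM (SD, n = 10) to 49.8 ± 15.0 CPM (SD, n = 11), with a log2 fold change of 0.93 ± 0.15 (SE). Its neighbour *Gsto2* had 31 and 47 reads in all and was not tested.

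*Mgst1* (ENSMUSG00000008540, chr6:138117314-138133774, plus strand), the membrane-bound MAPEG transferase of endoplasmic reticulum and outer mitochondrial membrane, had 12.3 to 20.7 CPM in RFP libraries (median 15.1). CRE libraries held 35.8 to 280.0 CPM (median 156). The groups did not overlap, although 2 CRE libraries stayed low, CRE 1-3 at 35.8 and CRE 3-2 at 42.7 CPM. The mean rose from 15.6 ± 3.17 CPM (SD, n = 10) to 142 ± 75.5 CPM (SD, n = 11), with a log2 fold change of 3.17 ± 0.29 (SE). Its relative *Mgst3* was not called, at 0.35 ± 0.22 (SE) with an edgeR adjusted p of 0.252, and *Mgst2* had 2 and 10 reads in all.

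**Figure D1:**
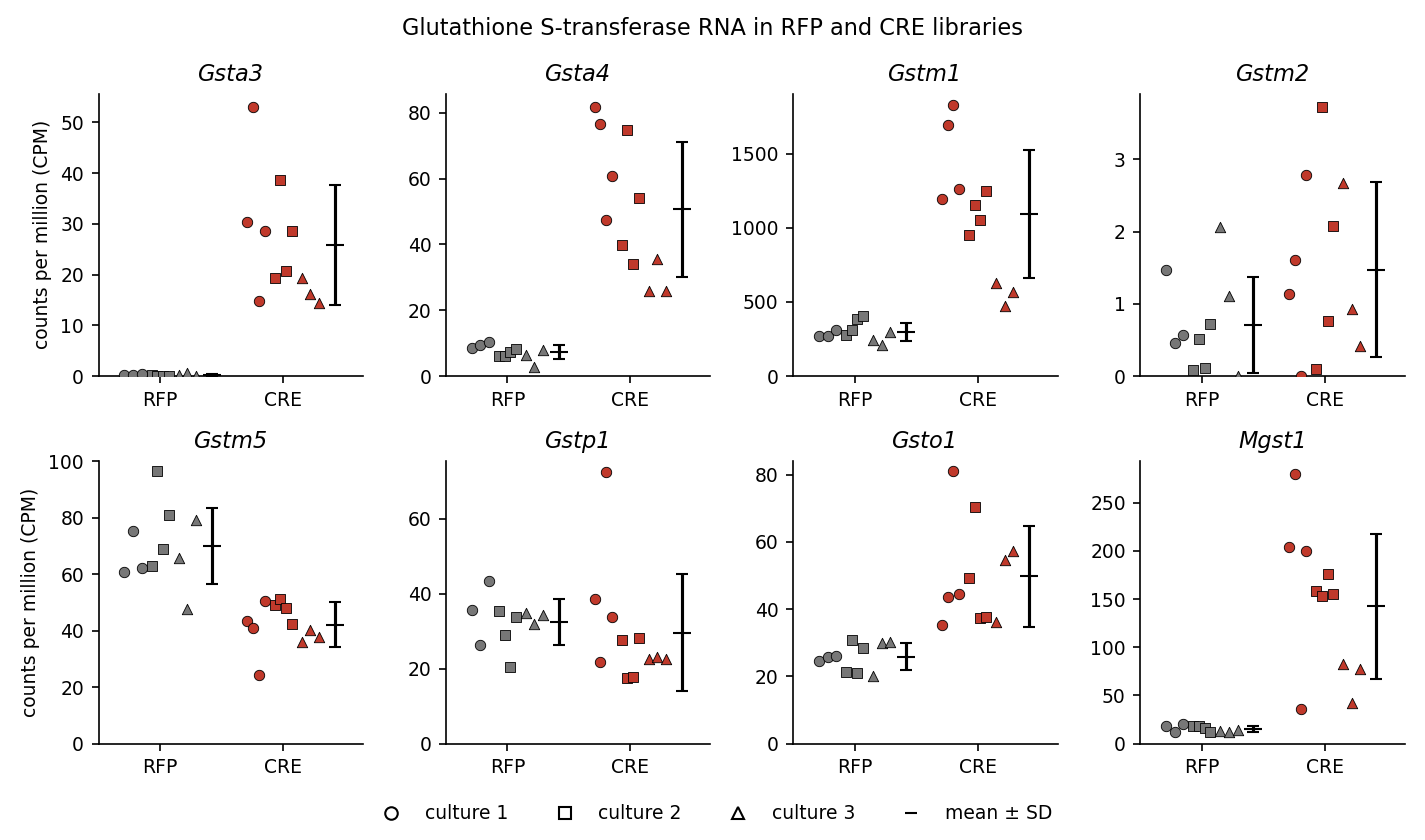
Level in CPM (y axis, linear, from 0, a separate scale per gene) of the 8 fitted genes in 10 RFP (grey) and 11 CRE (red) libraries, with the culture as the symbol and mean ± SD as bars. *Gsta3*, *Gsta4*, *Gstm1*, *Gsto1* and *Mgst1* do not overlap between the groups, *Gstm5* is lower in CRE libraries, and *Gstm2* and *Gstp1* overlap.

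The libraries absent from the study's count table, CRE 3-3 and RFP 3-2, had 1546796 and 7635735 counts. CRE 3-3 had *Nedd8* at 2.05 CPM, as its label says. Its *Mgst1* (36.8 CPM) and *Gsto1* (39.6 CPM) lay within the range of the other CRE libraries, while *Gstm1*, at 407 CPM, was below them and just above all RFP libraries. It had 1 read of *Gsta3* (0.682 CPM), 1.36 CPM of *Gsta4*, below all 10 RFP libraries, and 2.73 CPM of *Gstm5*. RFP 3-2 held 0.898 CPM of *Gsta3*, 8.80 of *Gsta4*, 231 of *Gstm1*, 11.1 of *Mgst1*, 38.4 of *Gsto1* and 41.3 of *Gstm5*, the last of these within the CRE range. Over all 23 libraries *Gstm1* and *Mgst1* still did not overlap between the groups, whereas *Gsta3*, *Gsta4* and *Gsto1* did. The log2 fold change was then 6.60 for *Gsta3*, 2.65 for *Gsta4*, 1.82 for *Gstm1* and 3.14 for *Mgst1*.

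Levels of different genes were compared per kilobase of exon. In RFP libraries the order was *Gstm1* (119 ± 23.8 CPM per kilobase, SD), *Gstm5* (54.6 ± 10.6), *Gstp1* (19.9 ± 3.77), *Mgst1* (7.68 ± 1.56), *Gsto1* (7.30 ± 1.14), *Gsta4* (2.67 ± 0.778), *Gstm2* (0.372 ± 0.346) and *Gsta3* (0.0335 ± 0.0362). *Mgst1* and *Gsto1* did not differ beyond their spread. In CRE libraries *Gstm1* was still first (436 ± 171), followed by *Mgst1* (70.0 ± 37.1) and *Gstm5* (32.9 ± 6.13). *Gsta4* (18.5 ± 7.47), *Gstp1* (18.1 ± 9.56) and *Gsto1* (14.1 ± 4.23) came next and did not differ beyond their spread, and *Gsta3* reached 4.50 ± 2.07. The middle of this order depends on the length used, since with the length of the representative transcript *Gsta3* stood at 17.6 ± 8.08 and *Gsta4* at 24.0 ± 9.71 CPM per kilobase.

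Summed over all 29 GST genes examined, the level per kilobase was 171 to 284 in RFP libraries and 305 to 934 in CRE libraries. *Gstm1* made up 51.7% ± 4.13 of it in RFP (SD, n = 10) and 69.1% ± 5.26 in CRE libraries (SD, n = 11). The share of *Gstm5* was 23.8% ± 2.84 and 5.98% ± 2.27, that of *Mgst1* 3.40% ± 0.734 and 11.2% ± 3.84, and that of *Gstp1* 8.89% ± 2.18 and 3.07% ± 1.19. CRE 1-3 had the highest share of *Gstm1*, 81.6%, and the lowest share of *Mgst1* among CRE libraries, 1.98%. The 3 CRE libraries of culture 3 had the lowest sums of their group.

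**Figure D2:**
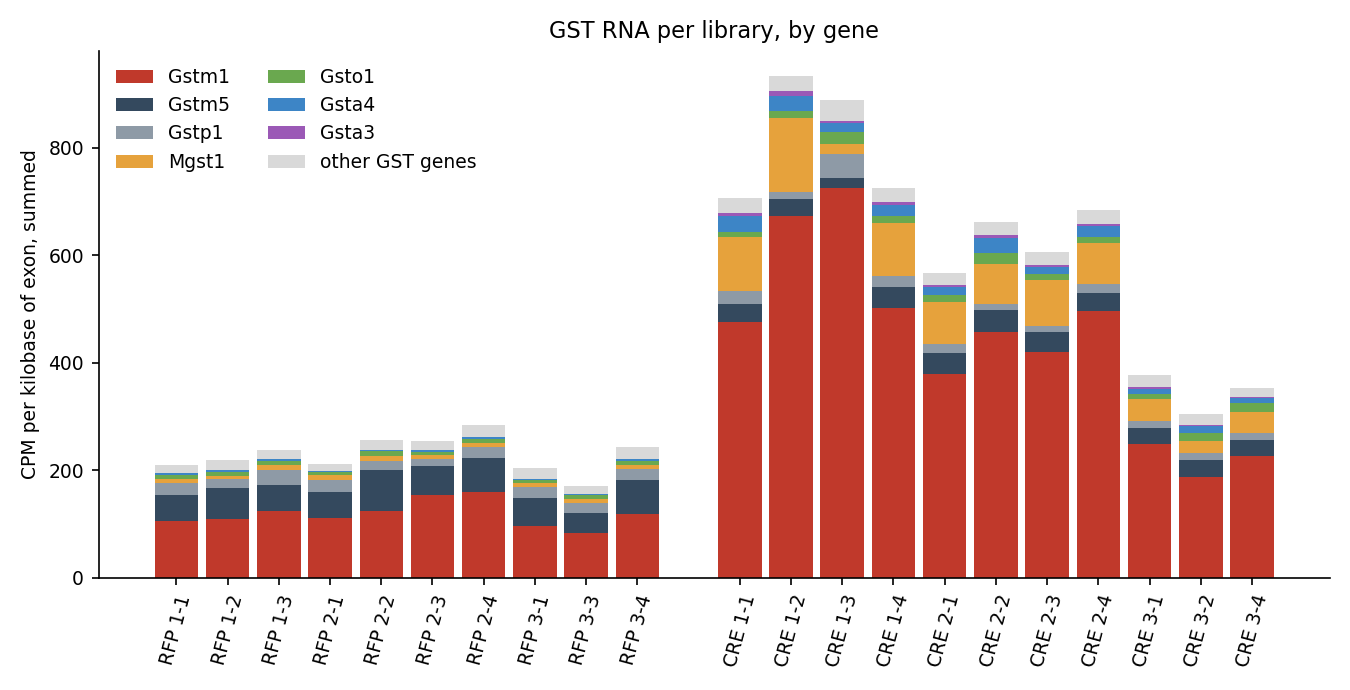
Summed level of 29 GST genes in CPM per kilobase of exon (y axis, linear, from 0) in each of the 21 libraries (x axis), with 1 colour per gene. RFP libraries reach 171 to 284 and CRE libraries 305 to 934, and *Gstm1* and *Mgst1* take up most of the difference.

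Variation among the cultures was tested first in the RFP libraries alone, which hold 3, 4 and 3 libraries of cultures 1 to 3. Of 15488 genes tested with edgeR, 0.542% differed between the cultures at an adjusted p under 0.05. None of the 7 listed genes tested did, and the lowest adjusted p was that of *Gstm1* (0.368). Only *Gstm1* had an unadjusted p under 0.05, 1 of 7, beside 1455 of all 15488 genes, and a DESeq2 likelihood ratio test called 0 of 7 as well. *Gsta3* was too low in RFP libraries to be tested there. On simulated counts with a change added in culture 3, the edgeR test found 9 of 100 genes with a log2 change of 1. It found 69 of 100 with a change of 2, so differences between cultures can go unseen. The mean of *Gstm1* in RFP libraries was 285 ± 24.9, 346 ± 59.5 and 252 ± 46.3 CPM (SD) in cultures 1 to 3.

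Next, the difference between CRE and RFP libraries was compared between cultures. For *Gstm1* the mean of log2(CPM + 0.1) was 2.37 higher in CRE libraries of culture 1, against 1.68 in culture 2 and 1.15 in culture 3. For *Mgst1* the values were 3.08, 3.31 and 2.29, and for *Gsta4* 2.78, 2.79 and 2.46. *Gsta3* (6.29, 7.49 and 5.88) and *Gstm2* (0.08, 1.53 and 0.83), which had few reads in RFP libraries, ranged more widely than *Gstm1*. The value of *Gstm2* in culture 1 was 1.13 without CRE 1-3. *Gsto1* (0.93, 0.91 and 0.87) and *Gstm5* (-0.77, -0.68 and -0.72) hardly varied. *Gstp1* was the only one of the 8 genes whose sign varied, with 0.14, -0.39 and -0.56, and its value in culture 1 was -0.17 without CRE 1-3. In CRE libraries the mean of *Gstm1* was 1493 ± 312, 1102 ± 127 and 556 ± 79.5 CPM (SD) in cultures 1 to 3.

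The edgeR interaction of condition and culture called 0.00582% of 17173 genes, a single gene, *Mbp*, and 0 of 8 listed genes. Here 2 of 8 had an unadjusted p under 0.05, beside 789 of all 17173 genes, and the lowest adjusted p was 0.748, for *Gstm1*. DESeq2's likelihood ratio test called 0 of 8, with 0.0875 for *Gstm1*. On simulated counts with a change added in CRE libraries of culture 3, the edgeR interaction recovered few genes. It found 3 of 100 with a log2 change of 1 and 43 of 100 with a change of 2. A count of 0 called therefore does not show that the response was the same in all cultures. Without CRE 1-3 and RFP 2-4, *Gstm1* was called (edgeR adjusted p = 0.0446), with *Mgst1* at 0.0732. The difference of *Gstm1* between the groups was then 2.26, 1.76 and 1.15 in cultures 1 to 3, and that of *Mgst1* 3.74, 3.19 and 2.29. That the response of *Gstm1* varied with the culture thus rests on leaving out these libraries.

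**Figure D3:**
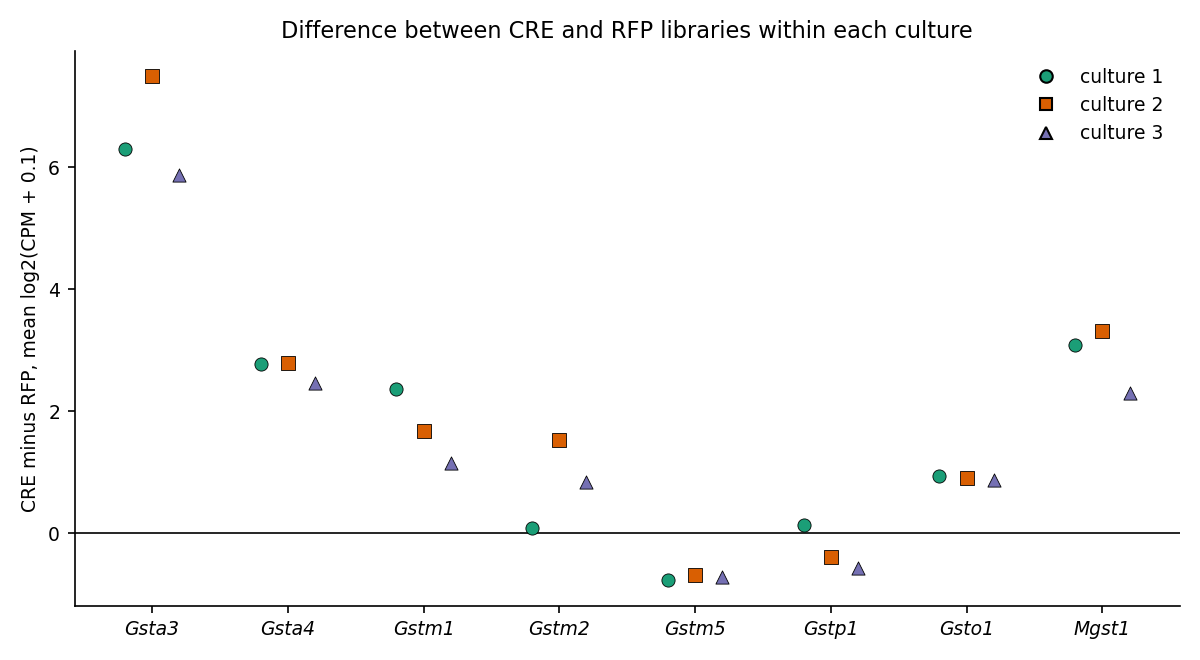
Difference of mean log2(CPM + 0.1) between CRE and RFP libraries (y axis) within cultures 1, 2 and 3 (symbols) for the 8 fitted genes. *Gstm1* goes from 2.37 to 1.68 and 1.15, whereas *Gsto1* stays between 0.87 and 0.93.

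Of the 19 other GST genes examined, 9 passed the filter. Of these, 2 were called higher (16.4% of all genes tested were) and 0 lower (13.8%), with a median log2 fold change of 0.23 beside 0.02 over all genes tested. The 2 that rose are neighbouring theta-class genes on chromosome 10, *Gstt3* and *Gstt1*, of which the second is known for conjugating small halogenated compounds. *Gstt3* (ENSMUSG00000001665, chr10:75609940-75617256, minus strand) rose from 0 to 1.36 CPM in RFP to 2.20 to 11.6 CPM in CRE libraries, with a log2 fold change of 4.42 ± 0.54 (SE) and an edgeR adjusted p of 7.6e-07. *Gstt1* (ENSMUSG00000001663, chr10:75618994-75634445, minus strand) rose from 0 to 3.03 CPM to 3.04 to 13.6 CPM, by 3.29 ± 0.62 (SE, edgeR adjusted p = 0.000188). For both, all 11 CRE libraries stood above all 10 RFP libraries, though by a narrow margin for *Gstt1*. On counts summed per culture the edgeR adjusted p was 1.2e-05 for *Gstt3* and 0.0097 for *Gstt1*. *Gstt3* shares 25.9% of its 50-base stretches with the overlapping gene *Gm20441*, *Gstt1* none with any gene. The other theta genes, *Gstt2* and *Gstt4*, had 83 and 0 reads in the 21 libraries.

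The remaining GST genes did not pass the test. *Gstz1* of the zeta class, which works in tyrosine breakdown, had a log2 fold change of -0.04 ± 0.17 (SE, adjusted p = 0.897), mitochondrial *Gstk1* -0.27 ± 0.44 (0.694), and *Gstcd* -0.55 ± 0.27 (0.128). *Gstp3* and *Gstt4* had no read in any of the 21 libraries, and *Gstp2*, which shares reads with *Gstp1*, had 5. *Hpgds*, the sigma-class enzyme that makes prostaglandin D, had 114 reads and was not tested.

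**Figure D4:**
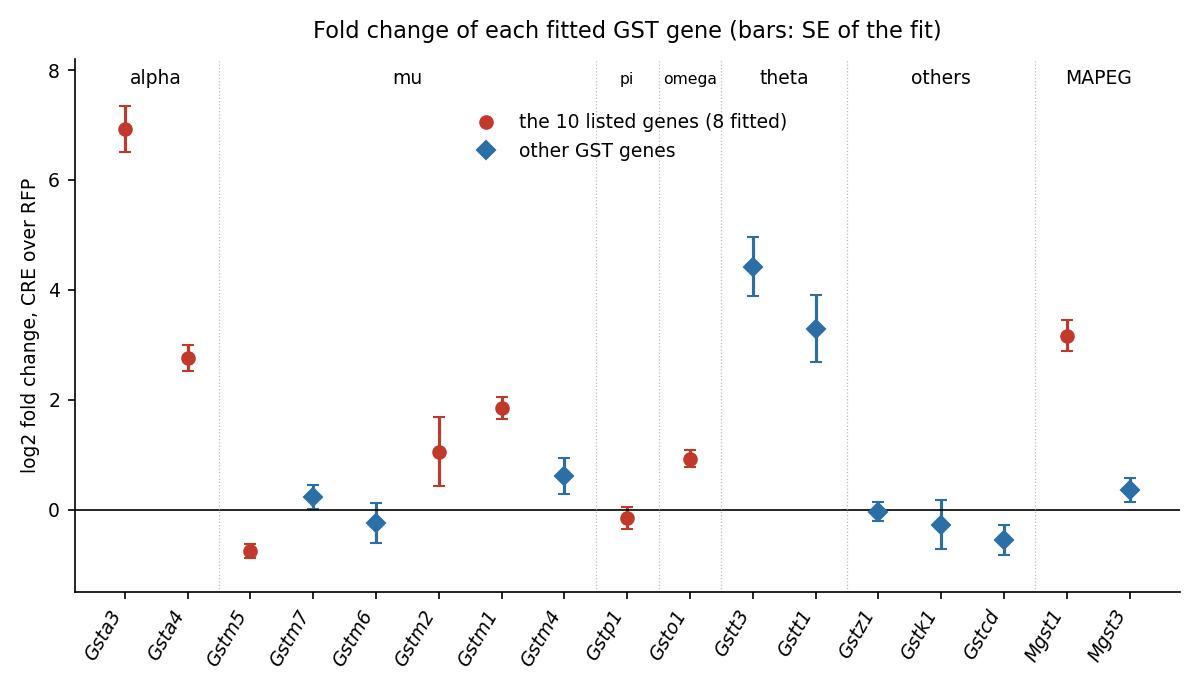
Log2 fold change of CRE over RFP libraries with the SE of the edgeR fit (y axis) for the 17 GST genes that passed the filter (x axis), ordered by class and, within the mu and theta classes, by position on the chromosome. Red circles are the listed genes and blue diamonds the other GST genes. *Gsta3* (6.93), *Gstt3* (4.42), *Gstt1* (3.29) and *Mgst1* (3.17) lead, and *Gstm5* is the lowest at -0.75.

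Conjugates made by GSTs leave the cell through transporters and are trimmed to mercapturates. Of 21 genes of this pathway, 13 were tested, 5 rose and 0 fell, where 16.4% and 13.8% of all genes did. The transporters *Abcc4* and *Abcc1* rose most clearly. *Abcc4*, an exporter of organic anions, went from 9.07 ± 2.78 to 44.2 ± 8.61 CPM (SD), a log2 fold change of 2.26 ± 0.17 (SE, edgeR adjusted p = 4.1e-10). *Abcc1*, the classical exporter of glutathione conjugates, rose by 1.36 ± 0.16 (3.6e-07), and neither gene overlapped between the groups. Over the alternative fits, which include counts summed per culture, the edgeR or DESeq2 adjusted p was at most 6.4e-05 for *Abcc4* and 0.00071 for *Abcc1*. Among the trimming enzymes, *Ggt5* rose by 2.32 ± 0.68 (0.0106) from a median of 0.258 CPM, and *Lap3* by 0.44 ± 0.15 (0.0295). The calls of *Ggt5* and *Lap3* were lost when culture 2 or culture 3 was left out, with adjusted p of 0.0553 to 0.0669 and 0.11 to 0.192, and that of *Lap3* also without culture 1 (0.0703). Both were lost on counts summed per culture (0.174 and 0.0681), and that of *Lap3* also with all 23 libraries (0.0514), without the filter on low counts (0.0618) and with library number as a block (0.0565). *Abcc5* (0.16 ± 0.13, 0.392) and 7 others did not pass the test.

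Of 16 genes that share the GST fold or belong to MAPEG without being classical GSTs, 12 were tested, 3 rose and 1 fell, where 16.4% and 13.8% of all genes did, with a median of 0.18. *Clic1*, a GST-fold protein that can insert into membranes, rose from 7.26 ± 2.84 to 36.6 ± 15.3 CPM (SD), by 2.31 ± 0.23 (SE, edgeR adjusted p = 3.9e-08). *Clic4* rose by 0.44 ± 0.11 (0.00306) and *Eef1g*, a subunit of translation elongation factor with a GST-like domain, by 0.23 ± 0.08 (0.0317). *Gdap1*, a GST-like protein of the outer mitochondrial membrane of neurons, fell by 0.76 ± 0.19 (0.00364). *Clic4* lost its call without culture 3 (0.127), and *Eef1g* lost its call without any 1 of the cultures (0.0503 to 0.23), with all 23 libraries (0.101), without the filter (0.112) and on counts summed per culture (0.149).

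Markers of other cell types moved between the groups beside these genes. For comparison, 16.4% of all genes tested were called higher and 13.8% lower. Of 10 astrocyte markers, 2 rose and 4 fell, and their summed level was 3739 to 8024 CPM in RFP and 1673 to 5368 CPM in CRE libraries. Of 8 neuronal markers, 1 rose and 5 fell, and of 9 markers of the oligodendrocyte lineage, 0 rose and 6 fell. Mesenchymal markers, 3 of 8, rose, and their sum went from 22.5 to 180 CPM in RFP to 179 to 538 CPM in CRE libraries. Most of this was *Rgs5*, with means of 25.3 and 147 CPM, and *Foxc1*, with 3.62 and 55.8 CPM, while the collagen genes, *Lum* and *Dcn* (25.9 and 12.4 CPM) did not pass the test. Of 4 progenitor markers, *Nes* and *Vim* rose and *Fabp7* fell. Microglial markers summed to at most 6.64 CPM in any library, with *Cx3cr1* at 0 in all CRE libraries, 1 of 6 endothelial markers fell, and 4 choroid plexus and ependymal markers tested did not pass the test. The part of these cell types in the GST values was not tested, and the files do not show which cells held the RNA.

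Within each group, other genes varied from library to library along with the listed genes. After the mean of each group was taken out, the 5 genes most like the mean of the 8 fitted genes over 21 libraries were *Prdx6* (Pearson r = 0.88), *G6pdx* (0.82), *Gclc* (0.81), *Pla2g7* (0.77) and *Tspan3* (0.76). Over the 19 libraries without CRE 1-3 and RFP 2-4 the first 5 were *Hspb8* (0.89), *Prdx6* (0.88), *Naa50* (0.88), *Mib1* (0.87) and *Txnrd1* (0.85), so *Prdx6* alone was in both. These values are a description, since the libraries share depth and culture.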

How the data were processed

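RNA-seq libraries of the cultures (Illumina Stranded mRNA Prep, NovaSeq6000) were processed by the authors with bcl2fastq 2.20.0.422, STAR 2.7.8a and featureCounts 1.5.0-p1, as named in the submitters' processing notes, on GRCm39 with Ensembl annotation. The authors deposited raw counts per gene and library as whole numbers, without normalization. The strand setting and the handling of reads with several matches are not given in the sources used here.

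Gene names, exons and coding sequences were taken from GENCODE M39 on GRCm39, which named 56323 of 56941 genes. Groups were compared with edgeR 4.0.16 in R 4.3.3 (filterByExpr, TMM, a robust quasi-likelihood fit with condition as the only term, Benjamini-Hochberg adjustment over all genes tested), on 21 libraries. CPM were computed with TMM factors over 23 libraries. RFP cultures were compared in 10 RFP libraries, and the difference between cultures by an interaction term. DESeq2 1.42.0 was an alternative, as were other sets of libraries, other scaling, no filter, blocks and sums per culture. The study's methods remove CRE 1-3 and CRE 3-3, while its count table lacks CRE 3-3 and RFP 3-2. The scripts were tested on simulated data. Coding identity is from global alignment (Biopython 1.88), shared stretches from exact matches of 50 bases among all transcripts. Figures were drawn with matplotlib 3.10.9.

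The members, gene lists, markers and alternatives were chosen with earlier results of these data known. Named are all members and other GST genes, and the up to 5 genes with the smallest p among those called in the mercapturate and GST-fold lists. A gene that this rule takes is not reported here. *Gstm2-ps1*, *Gm20441*, *Mbp* and single markers were named after their values were seen. Counting error alone is covered by limits from a count of 0.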

Additional observations from a re-analysis of the deposited data

Results flagged for a closer look

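In the 10 RFP libraries, 4 genes had 1 library further from the rest than Dixon's test at the 95% level allows, of 27 genes examined. Chance alone flags about 1 group in 20. *Gsta2* stood at 0.334 CPM in RFP 2-1, its only RFP library with a read. A gene with reads in only 1 library is always flagged, so this flag says nothing of its level. *Gstm4* stood at 5.81 CPM in RFP 2-4 and *Gstm7* at 14.4 CPM in RFP 2-2, both the highest of the group. *Gdap1* stood at 132 CPM in RFP 2-4, the lowest of the group. RFP 2-4 is the library with 3.43% of counts on mitochondrial genes, and its part in these values was not tested.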

How the results depend on the processing

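Over all genes, 4370 were called between CRE and RFP libraries, 6920 without the filter on low counts and 2114 without culture 2, and higher genes made up 54.3%, 63.1% and 62.0% of the calls. Of the members, 6 or 7 were called under each of the 12 alternatives, which is a description, since they were chosen with this contrast known. The added call was *Gstp1* without CRE 1-3 and RFP 2-4 and without culture 1. Without the filter it was *Gsta1*, on 5 CRE and 0 RFP reads. No fold change of a gene named here that was called changed its direction. The mercapturate list went from 5 called genes to 2 without culture 2 and to 2 without culture 3. Among RFP cultures, 84 genes differed, but 238 with all 11 RFP libraries, 209 without RFP 2-4, 315 by DESeq2 and 465 without the filter. The interaction called 1 gene, but 0 with all 23 libraries, 43 without CRE 1-3 and RFP 2-4, 17 by DESeq2 and 88 without the filter, and 1 member, *Gstm1*, without CRE 1-3 and RFP 2-4. The fit without the filter tests more genes, and the fits without a culture hold fewer libraries, while the cause of the other shifts was not tested. Over all genes, libraries with the same number deviated together little or not at all (correlations of 0.02, 0.02 and 0.14 for culture number, and 0.09 to -0.22 for library number). These values do not show whether single genes vary with the number. With culture number as a replicate block 4267 genes were called, with library number 4235, and 6 members under both. Depth limits *Gsta1*, *Gsta2* and *Gstm2*, whose few reads leave any change uncertain.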
